A study of Mus musculus with 20 samples.

Results

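Desmosome genes and Perp are 10 genes whose products build or accompany desmosomes, and they were picked by symbol from the 24062 gene symbols counted in dermal lymphatic endothelial cells (LECs) at 4 times of day. All 10 symbols (Dsp, Dsg1a, Dsg3, Dsc1, Dsc2, Dsc3, Pkp1, Pkp3, Jup and Perp) were present and all 10 passed the filter on low counts. The genes were listed with their levels in these libraries already known, so their levels and fold changes are given as a description, without p-values. The libraries came from wild-type C57BL/6 mice at postnatal day 56, kept in 12 h of light and 12 h of dark. Ears were taken at zeitgeber time (ZT) 1, 7, 13 and 19, in hours after light onset, with 5 replicates per time point, which gave 20 libraries. For every replicate the ears of 2 mice (4 ears) were combined, and between 3000 and 5000 live CD31+podoplanin+ cells were sorted from each pool. The question of the time course was which transcripts of these LECs differ with the time of day.

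Desmosomes are junctions that fasten neighbouring cells to each other and couple their intermediate filaments. Desmogleins and desmocollins, both cadherins, bind across the gap between cells. Plakoglobin and the plakophilins hold their tails inside the cell, and desmoplakin links this plaque to keratin or vimentin filaments. Desmosomes are abundant in epidermis and heart. Lymphatic endothelium is not known for classical desmosomes, although desmoplakin and plakoglobin occur at its junctions. Perp, a tetraspan membrane protein and a target of p53 and p63, is needed for desmosome assembly in stratified epithelium.

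Between 4475111 and 42002363 reads were counted on genes per library. Replicate 5 of ZT13 and replicate 1 of ZT19 stood apart, with the fewest genes detected (13309 and 12477) and the highest shares of reads on genes, and results that rest on them are also given without them. This share was taken over reads on genes and reads on no feature, without ambiguous, unaligned or multiply aligned reads. The share of reads on genes was mostly higher at ZT19, with overlap between the time points. It ranged from 20.2% to 29.5% at ZT1, from 12.7% to 62.3% at ZT7, from 20.1% to 79.9% at ZT13 and from 35.0% to 81.6% at ZT19. The 7 LEC markers, among them Prox1, Lyve1 and Pdpn, were above 0 in every library, and their summed normalized counts ranged from 43860 to 108090. Keratinocyte markers were present as well, although the cells had been sorted as CD31+podoplanin+, and they moved with the time points. At ZT1 the summed level of the 17 keratinocyte markers in the files lay between 38853 and 77585, and at ZT7 between 68674 and 180607. At ZT13 it lay between 14236 and 35494, below every other library, and at ZT19 between 96780 and 212193. For 15 of these 17 genes the mean was lowest at ZT13. No keratinocyte marker was at 0 in all 5 libraries of a time point, and at ZT13 2 of the 17 were at 0 in at least 1 library. The part of keratinocyte RNA in the levels below was not tested, and in sorted bulk samples fewer cells of a type and less RNA per cell cannot be told apart.

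Positions are given in GRCm38, the build that mm10 denotes, with GENCODE M21 genes. Dsp, Jup, Pkp1, Pkp3 and Perp are on separate chromosomes, with Dsp at chr13:38151294-38198577 (plus), Jup at chr11:100368958-100397763 (minus), Pkp1 at chr1:135871395-135919207 (minus), Pkp3 at chr7:141078218-141090510 (plus) and Perp at chr10:18845020-18857073 (plus). None of the 10 shares exon bases with another gene of the files. Counts were deposited per gene symbol, so each value below is a sum over the transcripts of a gene.

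Promoter sequence was at hand for 2 of the 10 genes, the plaque genes Dsp and Jup, and it is shown because both code for the plaque that the cadherins attach to. Each run is the 250 bases before the gene's start in RefSeq's GRCm38.p6, in the direction of the gene, with matches to the GC box GGGCGG on either strand in capitals.
Dsp, chr13:38151044-38151293 (plus strand): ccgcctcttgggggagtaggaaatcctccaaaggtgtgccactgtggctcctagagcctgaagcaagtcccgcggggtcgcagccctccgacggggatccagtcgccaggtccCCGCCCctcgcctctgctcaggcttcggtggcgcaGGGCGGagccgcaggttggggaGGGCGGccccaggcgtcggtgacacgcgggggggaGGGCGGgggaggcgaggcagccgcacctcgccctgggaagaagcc
Jup, chr11:100397791-100398040 (minus strand): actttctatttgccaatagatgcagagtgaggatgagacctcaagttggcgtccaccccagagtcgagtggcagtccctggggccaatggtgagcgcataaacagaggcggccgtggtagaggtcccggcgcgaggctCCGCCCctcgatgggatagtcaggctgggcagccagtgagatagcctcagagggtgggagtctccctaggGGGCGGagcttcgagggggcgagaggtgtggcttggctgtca
The Dsp run held 4 GC boxes and the Jup run held 2, and a GC box was found in 32.7% of 32851 promoters of the same length. Neither run held the E-box CACGTG, which 6.02% of these promoters held, or the AP-1 motif TGANTCA, which 6.75% held, on either strand. The motifs do not overlap each other in these runs, and a match or its absence describes only these letters.

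The 10 genes differed widely in level. Per kilobase of exon, Perp had a mean of 4121 ± 3113 normalized counts (SD, n = 20) and made up 70.5% of the summed mean of the 10 genes. Jup (plakoglobin) followed with 581 ± 285 per kilobase and Pkp3 with 356 ± 217. Perp was above Jup in all 20 libraries, and Jup was above Pkp3 in 17. Dsc3, Pkp1 and Dsp were close to each other, at means of 240, 229 and 207 per kilobase, and their order changed between libraries, with Dsc3 above Pkp1 in 10 of 20 and Pkp1 above Dsp in 12 of 20. Dsg1a had 69.6, Dsg3 23.0, Dsc1 10.7 and Dsc2 7.12 per kilobase. Dsc1 was above Dsc2 in 12 of 20 libraries, so this pair did not differ beyond its spread.

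Of the 10 genes, 8 had their lowest mean at ZT13, the evening time point, and so had 20% of the 19209 genes tested. ZT19 held the highest mean for 5 of the 10 genes and for 27% of all genes, and ZT7 for 4 of the 10 and for 27.7% of all. Dsc1 instead had its highest mean at ZT13 and its lowest at ZT19, and Dsc2 had its lowest mean at ZT1. From ZT13 to ZT19, the median log2 fold change of the 10 genes was 1.49, and over all genes tested it was -0.22. From ZT7 to ZT13 these medians were -1.59 and -0.07.

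**Figure D1:**
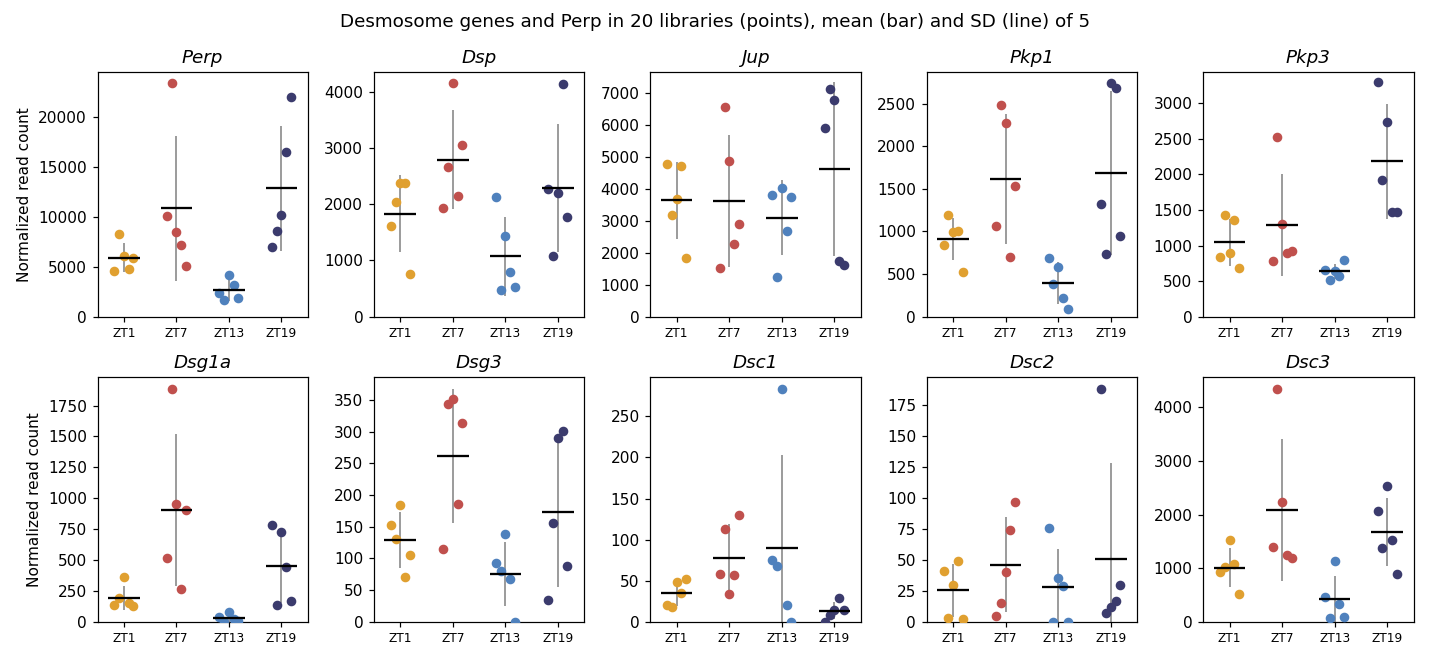
Normalized read counts of the 10 genes (y axis, linear and starting at 0) in the 20 libraries, grouped by time point. Points are libraries, horizontal bars are means and vertical lines are SD of 5, and Perp ranged from 1610 to 4187 at ZT13 against 6967 to 21923 at ZT19.

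Perp was the gene with the highest level per kilobase in every library. Its normalized counts in replicates 1 to 5 were 4507, 8282, 6063, 4794 and 5840 at ZT1 and 10091, 23378, 8420, 7189 and 5061 at ZT7. They were 2311, 1610, 4187, 3192 and 1844 at ZT13 and 6967, 8602, 10153, 16476 and 21923 at ZT19. All 5 libraries of ZT13 lay below all 15 others, while ZT7 and ZT19 overlapped. From ZT7 to ZT13 its log2 fold change was -2.04 ± 0.44 (SE, n = 5 against 5) and that from ZT1 to ZT13 was -1.17 ± 0.43. At ZT19 Perp was 4.88-fold higher than at ZT13, and without the 2 libraries that stood apart this log2 difference was 2.34 ± 0.49. From ZT1 to ZT19 the log2 fold change was 1.12 ± 0.43, with overlapping groups.

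Dsp codes for desmoplakin, the plakin that ties the plaque to intermediate filaments. Its normalized counts were 1605, 2045, 2382, 2385 and 761 at ZT1 and 1943, 2665, 4170, 2155 and 3050 at ZT7. They were 2126, 480, 1440, 795 and 522 at ZT13 and 2265, 1084, 2201, 4149 and 1768 at ZT19. The ZT13 libraries overlapped those of the other time points, with replicate 1 within the range of ZT7 and ZT19 and replicates 2 and 5 the lowest of the 20 libraries. In log2 terms the difference was -1.38 ± 0.42 from ZT7 to ZT13 and 1.10 ± 0.42 from ZT13 to ZT19.

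Jup codes for plakoglobin, the armadillo protein that desmosomes share with adherens junctions. Its normalized counts were 4761, 3164, 3689, 4706 and 1834 at ZT1 and 1509, 6537, 4866, 2255 and 2899 at ZT7. They were 3801, 1235, 4024, 2682 and 3738 at ZT13 and 5883, 7102, 6762, 1731 and 1624 at ZT19. The 4 time points overlapped, and at ZT19 replicates 1 to 3 were high and replicates 4 and 5 were low. The log2 fold change from ZT7 to ZT13 was -0.22 ± 0.46, and its sign turned without replicate 2 of ZT7 (0.10 ± 0.47). Between ZT13 and ZT19 it was 0.58 ± 0.46, the smallest absolute value of the 10 genes in that comparison.

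The plakophilins Pkp1 and Pkp3 are armadillo proteins that cluster the desmosomal cadherins. Normalized counts of Pkp1 were 839, 1196, 988, 1004 and 529 at ZT1 and 1069, 2490, 2276, 697 and 1534 at ZT7. They were 691, 385, 585, 223 and 84.4 at ZT13 and 1319, 738, 2742, 2680 and 945 at ZT19. Each ZT13 library of Pkp1 was below each library of ZT7 and ZT19, by a narrow gap to the lowest of ZT7 (697). Its log2 fold change was -2.04 ± 0.48 from ZT7 to ZT13 and 2.10 ± 0.48 from ZT13 to ZT19.

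Normalized counts of Pkp3 were 840.4, 1424, 899, 1363 and 687 at ZT1 and 783, 2527, 1309.6, 899 and 918 at ZT7. They were 655, 516, 645, 572 and 791 at ZT13 and 3305, 1926, 2746, 1474 and 1471 at ZT19. The 5 libraries of ZT13 lay close together, and all 5 of ZT19 were above all of ZT13 and all of ZT1. The log2 fold change of Pkp3 was 1.78 ± 0.35 from ZT13 to ZT19 and 1.07 ± 0.35 from ZT1 to ZT19, and from ZT7 to ZT13 it was -1.02 ± 0.35. Of the summed level per kilobase of Pkp1 and Pkp3, Pkp3 held 61.2% ± 4.07 at ZT1 and 52.6% ± 8.55 at ZT7 (SD, n = 5). It held 70.7% ± 14.8 at ZT13 and 65.2% ± 14.7 at ZT19. The ZT13 mean was raised by replicate 5, at 92.9%, and the ZT13 median was 65.1%.

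The 5 desmosomal cadherins lie in 1 cluster on chromosome 18, with Dsc3 at chr18:19960930-20002351, Dsc2 at chr18:20030633-20059554, Dsc1 at chr18:20084184-20114871, Dsg1a at chr18:20310811-20343350 and Dsg3 at chr18:20510274-20547459. The desmocollins are on the minus strand and the desmogleins on the plus strand.

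Among the desmogleins, Dsg1a had the widest range of time-point means of the 10 genes on the log2 scale. Its normalized counts were 137, 189.6, 364, 150.1 and 132 at ZT1 and 516, 1885, 949.9, 264 and 907 at ZT7. They were 37.7, 2.12, 81.3, 25.6 and 10.4 at ZT13 and 787, 139.8, 727, 439.8 and 172 at ZT19. All 5 libraries of ZT13 were below all 15 others, at raw counts of 2 to 48. Log2 fold changes were -4.91 ± 0.72 from ZT7 to ZT13, -2.69 ± 0.67 from ZT1 to ZT13 and 3.91 ± 0.69 from ZT13 to ZT19. Without the 2 libraries that stood apart, the first of these was -4.66 ± 0.75 and the last was 3.37 ± 0.72. When only replicate 3 of ZT13 was left out, they were -5.67 ± 0.77 and 4.76 ± 0.73. Dsg1a has the close paralogs Dsg1b and Dsg1c, and reads that aligned to more than 1 place were left out of the counts, so its level is uncertain. Of the level per kilobase of these 3 paralogs, Dsg1a held 79.8% ± 20.1 (SD, n = 20).

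Dsg3 is the desmoglein of basal layers in stratified epithelium. Its normalized counts were 153, 131, 185, 71.2 and 105 at ZT1 and 116, 344, 351, 186 and 314 at ZT7. They were 92.1, 80.6, 139, 67.2 and 0 at ZT13 and 35.0, 156, 289, 302 and 87.3 at ZT19. The time points overlapped, and replicate 5 of ZT13 had no count although it was the deepest library, where 3 counts would be a normalized count of 0.648. Its log2 fold changes were -1.80 ± 0.83 from ZT7 to ZT13 and 1.21 ± 0.82 from ZT13 to ZT19. Without the 2 libraries that stood apart these were -1.47 ± 0.53 and 1.15 ± 0.54.

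The make-up of the desmoglein transcripts varied between time points. Of the summed level per kilobase of Dsg1a, Dsg2 and Dsg3, the part of Dsg1a was 26.5% ± 10.99 (SD, n = 5) at ZT1, then 64.3% ± 13.6 at ZT7 and 12.04% ± 7.04 at ZT13, and again 56.1% ± 24.7 at ZT19. Dsg2, the desmoglein of simple epithelia and heart, held 58.5% ± 15.9, 18.2% ± 9.47, 55.2% ± 28.4 and 24.8% ± 16.3 at the same time points.

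Dsc3 was the main desmocollin on average, with 89.8% ± 12.4 of the level per kilobase of the 3 desmocollins (SD, n = 20). At ZT13 it held 76.9% ± 19.8 (SD, n = 5). In replicate 2 of ZT13 it held 46.3%, and Dsc1 was above it there. Normalized counts of Dsc3 were 924, 1019.9, 1519, 1071 and 512 at ZT1 and 1392, 4346, 2228, 1255 and 1196 at ZT7. They were 469.5, 62.6, 1142, 337 and 94.8 at ZT13 and 2064, 1383, 2529, 1523 and 889.99 at ZT19. Each ZT13 library was below each library of ZT7, and replicate 3 of ZT13 alone was above the lowest of ZT19. The log2 fold change was -2.31 ± 0.56 from ZT7 to ZT13 and 2.001 ± 0.55 from ZT13 to ZT19, and without replicate 3 of ZT13 these were -3.19 and 2.95.

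Dsc1, the desmocollin of upper epidermal layers, and Dsc2, the most widespread of the family, had the lowest levels of the 10 genes. Normalized counts of Dsc1 were 19.9, 18.5, 48.1, 35.6 and 52.7 at ZT1 and 57.8, 113, 33.9, 56.4 and 129.9 at ZT7. They were 75.5, 67.9, 284, 20.3 and 0 at ZT13 and 0, 8.59, 14.9, 28.4 and 14.4 at ZT19. The mean of Dsc1 at ZT13, 89.4 ± 113 (SD, n = 5), rested mainly on replicate 3. Its log2 fold change from ZT13 to ZT19 was -2.76 ± 1.30, the reverse of the other 9 genes (42.1% of all genes were higher). It was -1.61 ± 1.34 without replicate 3 of ZT13 and lay between -3.23 and that value over the 20 fits that each left out a library. Between ZT7 and ZT13 it was 0.19 ± 1.22 and, without the same library, -1.01 ± 1.36. For Dsc1 all 5 libraries of ZT19 were below all 5 of ZT7. Normalized counts of Dsc2 were 41.2, 3.36, 30.1, 49.5 and 2.39 at ZT1 and 4.92, 15.4, 40.2, 74.3 and 96.5 at ZT7. They were 75.5, 0, 35.7, 28.8 and 0.216 at ZT13 and 188, 7.27, 11.6, 16.8 and 29.8 at ZT19, so all time points overlapped and replicate 1 of ZT19 was the highest. Its log2 fold change from ZT13 to ZT19 was 0.87 ± 1.37 with that library and -1.09 ± 1.33 without the 2 libraries that stood apart. No count was found for Dsc1 in 2 libraries and for Dsc2 in 1.

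By edgeR's quasi-likelihood F-test over all 20 libraries at a Benjamini-Hochberg adjusted p of 0.05, 2 of the 10 genes, Dsg1a and Perp, passed for differences among the 4 time points, where 0.422% of the 19209 genes tested passed. From ZT13 to ZT19 4 of the 10 passed, Dsg1a, Perp, Pkp1 and Pkp3, all higher, against 0.5% of all genes. From ZT7 to ZT13 1 passed, Dsg1a, lower, against 0.0781%. The genes were listed with these comparisons known, so nothing is read from these counts. When each library was left out in turn, Dsg1a passed in all 20 fits of these 3 comparisons, and so did Perp and Pkp3 from ZT13 to ZT19. Pkp1 dropped out from ZT13 to ZT19 without replicate 2 or 4 of ZT13 or replicate 3 or 4 of ZT19. Among the 4 time points, Perp passed in 9 of the 20 fits that left out 1 library (without replicate 2 of ZT1, replicate 1, 2, 4 or 5 of ZT7, replicate 3 of ZT13, or replicate 1, 2 or 4 of ZT19) and missed the threshold in the other 11. Without replicate 3 of ZT13, Dsc3 and Pkp1 joined Dsg1a and Perp among the 4 time points and from ZT7 to ZT13, giving 4 genes in each, and Dsc3 also passed from ZT13 to ZT19, giving 5. Perp passed from ZT7 to ZT13 without replicate 5 of ZT7, giving 2 genes. Pkp3 passed among the 4 time points without replicate 1 or 2 of ZT7 or replicate 4 of ZT19. The calls over all genes varied between these fits as well, from 30 to 178 among the 4 time points (104 without replicate 3 of ZT13), from 2 to 36 from ZT7 to ZT13 (36 without that library, 19 without replicate 5 of ZT7) and from 63 to 853 from ZT13 to ZT19. Without the 2 libraries that stood apart, 1 of the 10 passed among the 4 time points, 1 from ZT7 to ZT13 and 3 from ZT13 to ZT19, where 57, 11 and 105 of all 19706 genes tested passed. When the gene-read share of each library was added to the fit, Dsg1a and Pkp1 passed from ZT13 to ZT19 (54 of all 19209 genes did), and the log2 fold changes were 2.16 ± 0.48 for Perp and 1.40 ± 0.35 for Pkp3.

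In the other 4 pairs of time points none of the 10 genes passed edgeR's threshold, and the share of all genes that passed was 0.00521% from ZT1 to ZT7, 0.0208% from ZT1 to ZT13, 0.0156% from ZT1 to ZT19 and 0.0156% from ZT7 to ZT19. At an unadjusted p of 0.05 the counts among the 10 were 2, 5, 2 and 1 in these pairs, against 4.97%, 5.37%, 21.6% and 19.7% of all genes. DESeq2 passed 0, 1, 2 and 0 of the 10, against 0.0517%, 0.306%, 9.45% and 11.1% of all genes. For a 24-h rhythm none of the 10 passed in edgeR at an adjusted or an unadjusted p of 0.05 or in DESeq2 after adjustment, against 0.0312%, 9.23% and 0.356% of all genes. On the log2 scale, the amplitude of the fitted 24-h cosine ran from 0.098 for Dsc2 to 1.45 for Dsc1. It was 1.36 for Dsg1a, 0.65 for Dsc3, 0.61 for Pkp1 and 0.60 for Perp.

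Without any test, groups that did not overlap were counted as well. From ZT13 to ZT19 4 of the 10 genes were higher without overlap (Dsg1a, Perp, Pkp1 and Pkp3), against 1.87% of all genes. From ZT7 to ZT13 4 were lower without overlap (Dsc3, Dsg1a, Perp and Pkp1), against 0.75%. A log2 fold change below 0 from ZT7 to ZT13 was found for 9 of the 10, against 55.1% of all genes. From ZT1 to ZT13 2 of the 10 were lower without overlap (Dsg1a and Perp), against 0.984%. From ZT1 to ZT19 1 was higher (Pkp3), against 2.38%, and from ZT7 to ZT19 1 was lower (Dsc1), against 1.02%.

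**Figure D2:**
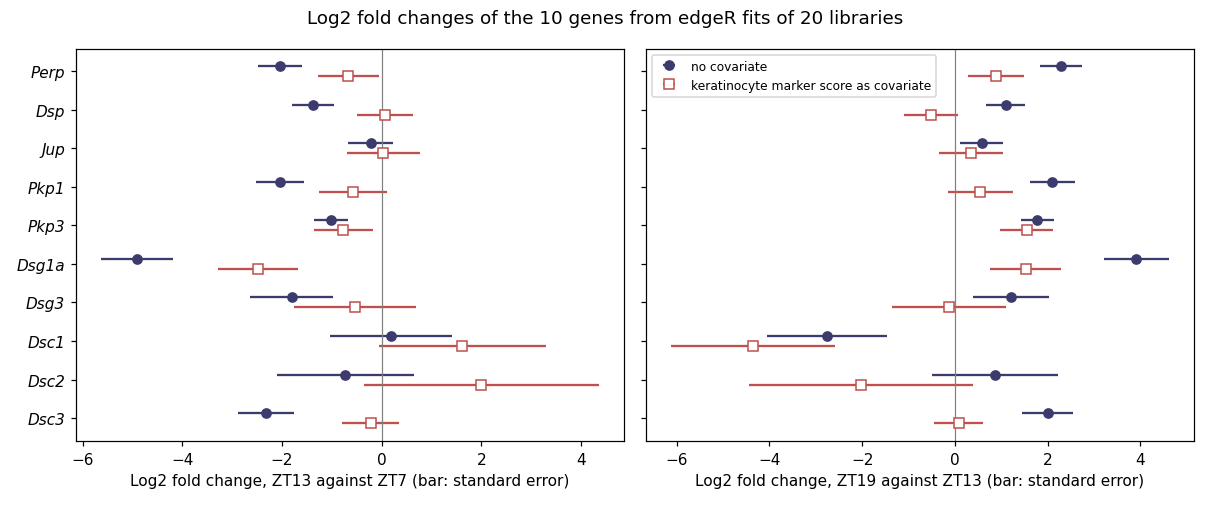
Log2 fold changes (x axis) of the 10 genes from ZT7 to ZT13 (left) and from ZT13 to ZT19 (right) in edgeR fits of the 20 libraries. Bars are standard errors, and filled circles are fits without and open squares fits with the keratinocyte marker score of each library as a covariate, where Perp moved from 2.29 to 0.89 in the right panel.

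The levels were then set against the keratinocyte markers of the same library. The mean log2 ratio of Perp to the summed 17 markers was -3.25 ± 0.15 (SD, n = 5) at ZT1, -3.49 ± 0.42 (ZT7), -3.16 ± 0.20 (ZT13) and -3.80 ± 0.53 (ZT19). Relative to these markers, 9 of the 10 genes were lower at ZT19 than at ZT13, as were 99.4% of all genes tested. The same number was found relative to Krt14 alone, the basal keratin with the highest level, again against 99.4%, so nearly every gene was lower on this scale and nothing is read from the count of the 10. The gene outside the 9 was Dsg1a, whose log2 ratio was -7.15 ± 0.94 at ZT7, -10.1 ± 1.28 at ZT13 and -8.82 ± 1.07 by ZT19. The log2 ratio of Jup went from -5.05 ± 0.99 at ZT7 to -2.96 ± 0.62 at ZT13 and -5.42 ± 1.44 at ZT19.

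**Figure D3:**
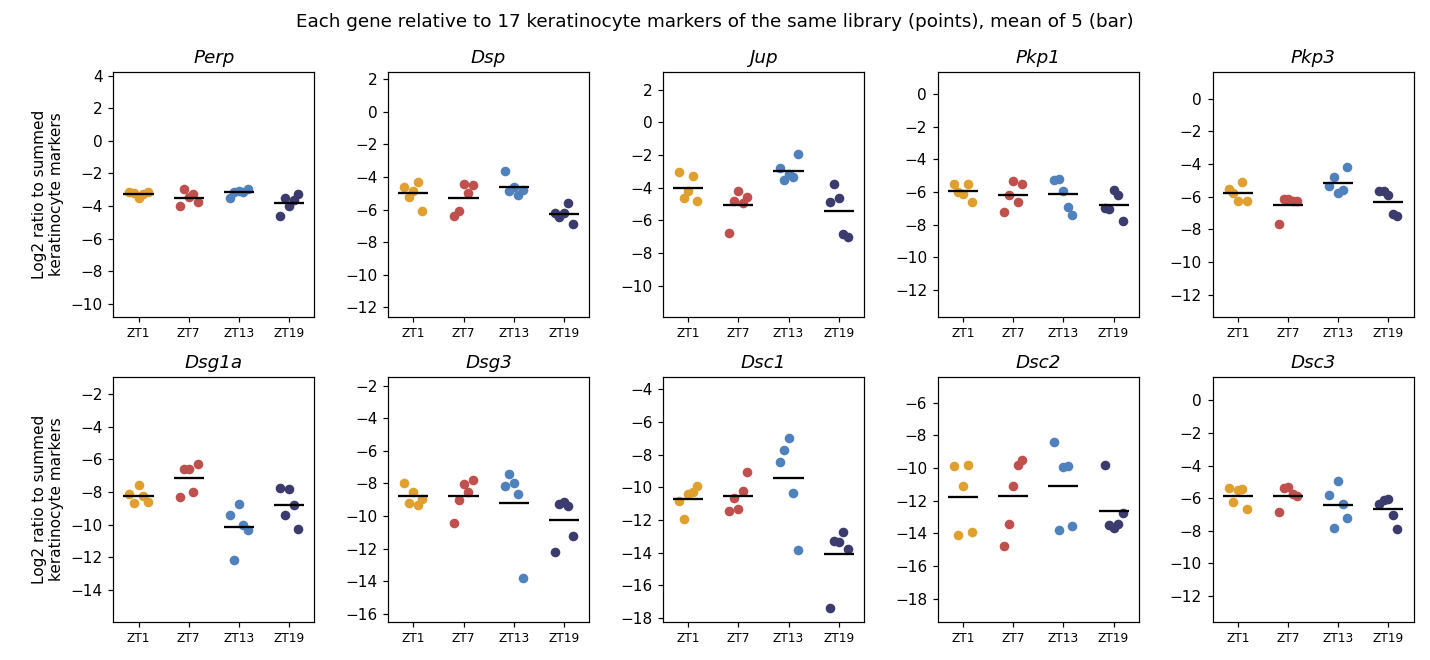
Log2 ratio of each of the 10 genes to the summed normalized counts of 17 keratinocyte markers of the same library (y axis, the same span in each panel), by time point. Points are libraries and bars are means of 5, with the mean for Perp between -3.80 and -3.16 at the 4 time points.

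With the keratinocyte marker score as a covariate in edgeR's fit, none of the 10 genes passed among the 4 time points, from ZT7 to ZT13 or from ZT13 to ZT19. Of all genes, 0.0104% passed among the 4 time points (2 genes, where 81 passed without the covariate) and 0% in either pair, so the loss of calls was not limited to the 10. At an unadjusted p of 0.05 the counts among the 10 were 2, 1 and 2, against 19.5%, 2.5% and 22% of all genes. The log2 fold change from ZT13 to ZT19 was then 0.89 ± 0.61 for Perp, 1.52 ± 0.77 for Dsg1a, 1.54 ± 0.58 for Pkp3 and 0.55 ± 0.70 for Pkp1. Pkp3 thus stayed near its value without the covariate (1.78), while Dsc3 went from 2.001 to 0.08 ± 0.54. Jup went from 0.58 to 0.35 ± 0.69, and the decrease of Dsc1 became larger, from -2.76 to -4.36 ± 1.77. The signs of Dsp, Dsg3 and Dsc2 turned to negative in this comparison, at -0.51 ± 0.59, -0.13 ± 1.22 and -2.02 ± 2.42. The covariate moved the log2 fold change from ZT7 to ZT13 from -2.04 to -0.67 ± 0.61 for Perp, from -4.91 to -2.49 ± 0.80 for Dsg1a and from -2.31 to -0.22 ± 0.57 for Dsc3. There the signs of Dsp, Jup and Dsc2 turned to positive, at 0.07 ± 0.56, 0.03 ± 0.74 and 2.003 ± 2.36. The score moved with the time points, so a difference with the time of day and one with the keratinocyte markers cannot be told apart here.

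The deviations of the genes from their time-point means were compared in pairs. Over the 20 libraries, each centred on its time-point mean on the log2 scale, Pearson's r was 0.885 between Dsg1a and Dsc3, 0.864 between Dsg3 and Dsc1, 0.752 between Dsp and Pkp1, 0.750 between Jup and Pkp3 and 0.742 between Dsg3 and Pkp1. The pairs overlapped, since Jup also had r = 0.604 with Dsc3 and 0.532 with Dsg1a, and Dsp had 0.678 with Dsg1a. The lowest values were -0.32 between Dsc1 and Pkp3 and -0.23 between Dsc1 and Jup. Without the 2 libraries that stood apart (n = 18), r was 0.906 for Dsg1a and Dsc3, 0.748 for Dsp and Pkp1, 0.735 for Jup and Pkp3 and 0.691 for Dsg3 and Pkp1. For Dsg3 and Dsc1, which are both at 0 in replicate 5 of ZT13, it fell to 0.368, and for Dsc1 and Pkp3 it was -0.0057. These values describe libraries that share sorting, amplification and depth.

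**Figure D4:**
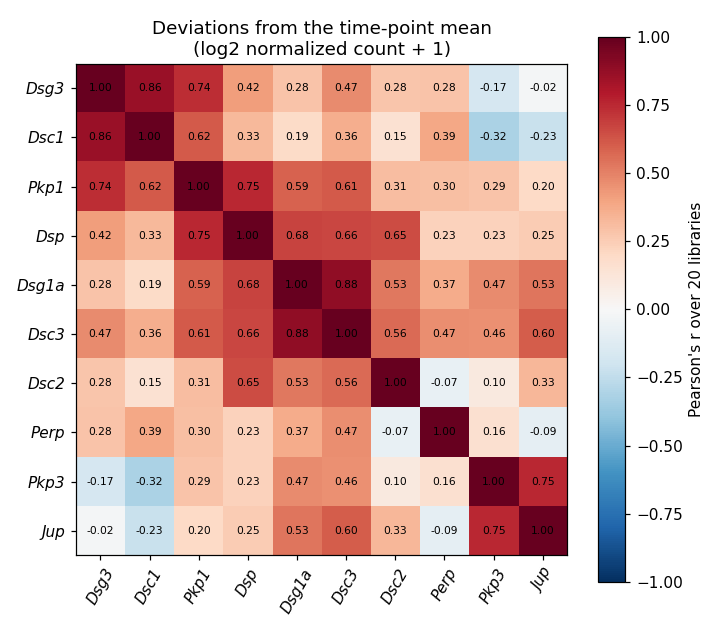
Pearson's r between pairs of the 10 genes over 20 libraries, from log2 normalized counts centred on the mean of each time point, on a colour scale from -1 to 1. Dsg1a and Dsc3 have the highest value (0.885), and Dsc1 and Pkp3 the lowest (-0.32).

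The same deviations were set against the keratinocyte marker score. Pearson's r with it was 0.802 for Dsc3, 0.754 for Dsg1a, 0.715 for Dsp, 0.679 for Perp and 0.611 for Pkp1, and 0.549, 0.539 and 0.494 for Dsg3, Dsc2 and Dsc1. For Pkp3 and Jup it was 0.124 and 0.123. In the 18 libraries other than those that stood apart, r with this score was 0.827 for Dsg1a, 0.781 for Dsc3, 0.694 for Perp, 0.686 for Dsp and 0.522 for Dsc2. It was then 0.461 for Pkp1, 0.345 for Dsg3, 0.302 for Pkp3, 0.255 for Dsc1 and 0.238 for Jup. When the 2 libraries with the scores farthest from the median were left out instead, Pkp1 had the highest value (0.702), Dsg1a had 0.594 and Jup had -0.13. Against the LEC marker score, Dsc2 had r = -0.77, and the other 9 genes lay between -0.31 and 0.22.

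The genes outside the list whose deviations were most like the mean of the 10 genes, among 10712 genes with a mean normalized count of at least 100 that were compared over the 20 libraries, were Kpna6 (Pearson's r = 0.896), Ccdc120 (0.875), Bbs4 (0.872), Mpzl2 (0.869), Slc2a5 (0.862), Inadl (0.849), Rapgefl1 (0.847), Exph5 (0.846), Tmem38b (0.845) and Tiam1 (0.842). For single genes, the most alike were Serpinb5 for Perp (0.912), Kremen1 for Jup (0.947), Sema5a for Dsg3 (0.931), Dux for Dsc1 (0.879), Trim29 for Dsc3 (0.872), Arf3 for Pkp3 (0.872), Nek8 for Dsc2 (0.869), Pank3 for Dsp (0.868), Cd44 for Pkp1 (0.849) and the hemidesmosomal collagen Col17a1 for Dsg1a (0.848). Without the 2 libraries that stood apart, r for Sema5a with Dsg3 was 0.406 and for Dux with Dsc1 0.458, while the other 8 single-gene values lay between 0.760 and 0.946 and those for the mean of the 10 genes between 0.707 and 0.848. With the time-point means left in, r between Perp and Serpinb5, a serpin of epithelial cells, was 0.967.

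Of the 9 other desmosome and cornified-envelope genes (Dsg1b, Dsg1c, Dsg2, Dsg4, Pkp2, Pkp4, Ppl, Evpl and Cdsn), 0 passed edgeR's test among the 4 time points, with 2 at an unadjusted p under 0.05 (Dsg2 and Dsg1b) and 0 by DESeq2. Ppl, which codes for the plakin periplakin, had nearly equal means of 2099 ± 961 (SD, n = 5) at ZT1, 2121 ± 831 (ZT7), 2081 ± 528 (ZT13) and 2137 ± 530 (ZT19). Its log2 difference between ZT19 and ZT13 was 0.04 ± 0.34 (SE). Dsg2 had means of 738 ± 623, 273 ± 78.2, 185 ± 140 and 236 ± 148 at the 4 time points, with an edgeR adjusted p of 0.217. Its ZT1 mean rested largely on 1 library at 1847, and the median of ZT1 was 488. Pkp4, a plakophilin relative that also occurs at adherens junctions, had its highest mean at ZT1, 3531 ± 2086, and its lowest at ZT19, 1549 ± 1103 (edgeR adjusted p = 0.377). Of the level per kilobase of the 4 plakophilins, Pkp4 held 58.3% ± 10.6 at ZT13 and 22.3% ± 12.7 at ZT19.

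Evpl, the gene for the plakin envoplakin, had means of 242 ± 155, 284 ± 91.3, 131 ± 79.2 and 160.4 ± 141 at ZT1, ZT7, ZT13 and ZT19. The other genes of this list were low, with means over the 20 libraries of 46.8 for Dsg1b, 11.7 for Dsg1c, 29.7 for Dsg4, 34.2 for Pkp2 and 24.9 for Cdsn. Dsg1b had a mean of 140.1 ± 118 at ZT7 and at most 17.6 at the other time points, with an edgeR adjusted p of 0.280.

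Of the 5 keratins, the filaments that desmosomes anchor in keratinocytes, Krt5, Krt14 and Krt15 passed edgeR's test among the 4 time points (adjusted p = 0.0140, 0.0170 and 0.000200), while Krt1 and Krt10 did not. The lists of genes outside the 10 were also drawn up with earlier results of these data known, so their p-values describe these libraries and are not independent evidence. Krt14 rose from a mean of 7249 ± 3617 at ZT13 to 52650 ± 15221 at ZT19 (SD, n = 5), a log2 fold change of 2.86 ± 0.49 (SE, edgeR adjusted p = 0.00368). Krt15 rose by 3.503 ± 0.43 and Krt5 by 2.84 ± 0.47 between the same time points (edgeR adjusted p = 0.000184 and 0.00308). These log2 differences were above that of Perp (2.29), and the difference between them was not tested. The 3 keratins, like Cdh1 and Trp63 below, are also among the 17 keratinocyte markers.

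Of the 7 adherens junction genes, 0 passed among the 4 time points in edgeR (2 at an unadjusted p under 0.05), and Cdh1, the gene for E-cadherin of epithelia, had a log2 difference of 1.75 ± 0.42 from ZT13 to ZT19, the only one of the 7 past the threshold there (edgeR adjusted p = 0.0475). Ctnnb1 and Ctnna1, the catenin genes with the highest levels, had log2 differences of -0.14 ± 0.32 and -0.06 ± 0.35 there. Of 13 genes of the p53 and p63 pathway, 0 passed among the 4 time points or from ZT13 to ZT19, with 4 and 3 at an unadjusted p under 0.05. Trp63, the epithelial regulator upstream of Perp, had a log2 difference of 1.90 ± 0.48 from ZT13 to ZT19 (edgeR adjusted p = 0.0624), and Cdkn1a and Sesn1, the p53 targets with the highest means, had adjusted p of 0.590 and 0.182 among the 4 time points. DESeq2 passed Sesn1 among the 4 time points.

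Of 5 relatives of Perp in the PMP22 family and near it, 0 passed among the 4 time points in edgeR (1 at an unadjusted p under 0.05). Emp2 was higher at ZT19, 2228 ± 419 (SD, n = 5), than at ZT13, 690.1 ± 254, with a log2 fold change of 1.69 ± 0.35 (SE, edgeR adjusted p = 0.0162, on a list chosen with these data known). Emp1 and Pmp22, the relatives with the highest means, had log2 differences of 0.19 ± 0.34 and 0.50 ± 0.38 there and did not pass.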

How the data were processed

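RNA of sorted LECs was sequenced after full-length cDNA amplification without molecular identifiers, as single-end reads of 100 nucleotides without strand. STAR was used by the authors for mapping to mm10 and HTSeq-count (Galaxy version 1.0.0) for counting, and raw counts per gene symbol were deposited, with no scaling. The gene annotation used for counting is not given in the sources used here. Rows that name no gene (no feature, ambiguous, not aligned, not unique) held 47.5% to 96.7% of each library's total and were left out of library sizes. Counts on genes had a median of 9379794, and the 3-count floor covers counting error only.

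Samples were grouped by their labels. All 20 libraries were fitted in edgeR 4.0.16 under R 4.3.3 (filterByExpr, TMM scaling, quasi-likelihood F-test). The 4 time points and the 6 pairs were compared in 1 fit, and the 24-h cosine had a separate fit with its own estimate of the spread. In each comparison p-values were adjusted over 19209 genes after Benjamini and Hochberg. For normalized counts, each count was divided by the TMM library size, itself taken relative to the geometric mean of all libraries, and logs used a pseudocount of 1. The keratinocyte marker score is the mean log2 normalized count of the markers. Exon lengths came from GENCODE M21. Standard errors of log2 fold changes are the fold change divided by the square root of its F. The fits were tested on simulated counts.

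The 10 genes and the other lists were chosen with earlier results of these data known. Named are all genes of the desmosome list, of the other lists those past the threshold and the 2 with the highest means, and the genes most alike in deviation. Alternatives were DESeq2 1.42.0, RLE scaling, no filter, the replicate number as a block, 2 covariates, a length offset, leaving out each library in turn, and fitting only the pair of time points in question. The fit without the 2 libraries with the fewest genes was added after the data were seen.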

Additional observations from a re-analysis of the deposited data

Results flagged for a closer look

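In replicate 5 of ZT13, Dsg3 had 0 counts, and on the scale of log2(normalized count + 1) the gap to the next library was 0.855 of the range of the 5 libraries of that time point, above the critical value of 0.71 for groups of 5. Of 40 groups looked at (10 genes at 4 time points), 1 was flagged, and chance alone flags about 1 in 20, or 2 groups. This was the deepest library, with 42002363 counts on genes and 13309 genes detected, and Dsc1 was at 0 in it as well.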

How the results depend on the processing

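Among the 4 time points, 2 of the 10 genes passed in edgeR. This count was 5 with DESeq2, 1 with the replicate block, 0 with the keratinocyte marker score as a covariate, 1 with the gene share (reads on genes relative to those on no feature) as a covariate, 1 without the 2 libraries with the fewest genes and 1 to 4 with each library left out. With the length offset it was 3, made up of Dsc3, Dsg1a and Pkp1, so Perp did not pass there. From ZT7 to ZT13 the count of 1 became 4 with DESeq2, 2 with RLE scaling, 2 with the replicate block, 0 with the keratinocyte score and 1 to 4 with each library left out. From ZT13 to ZT19 the count of 4 became 0 with the keratinocyte score, 2 with the gene share and 1 when only these 2 time points were fitted, and it was 3 to 5 with each library left out. In this comparison the length offset also passed 4, with Dsc3 in place of Pkp3, and DESeq2 passed 6. From ZT1 to ZT13 and from ZT1 to ZT19, DESeq2 gave 1 and 2 (71 and 2192 of all genes) where edgeR gave 0 (4 and 3 of all). Of the genes in the other lists, 3 passed among the 4 time points in edgeR, 6 with DESeq2, 0 with the keratinocyte score and 5 with the length offset. Calls over all genes moved too. Among the 4 time points they were 81 in edgeR, 647 with DESeq2, 31 with the replicate block, 2 with the keratinocyte score, 49 with the gene share, 100 with the length offset and 57 without the 2 libraries. Between ZT7 and ZT13 they were 18, and 89 with DESeq2, 24 with RLE scaling, 12 with the block and 0 with the keratinocyte score. From ZT13 to ZT19 they were 113, and 1998 with DESeq2, 0 with the keratinocyte score, 54 with the gene share, 118 with the length offset and 32 with only these 2 time points. The cause of these changes was not tested. Direction in both comparisons around ZT13 was the same for all 10 genes under RLE scaling, DESeq2, no filter, the length offset and the fit of only 2 time points. Between ZT7 and ZT13 the sign of Dsc1 turned with the replicate block, with the gene share and without replicate 3 of ZT7 or replicate 3 of ZT13, that of Jup without replicate 2 of ZT7, and those of Dsc2, Dsp and Jup with the keratinocyte score. Between ZT13 and ZT19 the sign of Dsc2 turned without replicate 1 of ZT19, with or without the other library that stood apart, and those of Dsc2, Dsg3 and Dsp with the keratinocyte score. The median log2 fold change of the 10 genes from ZT13 to ZT19 was 1.49, and it was 1.31 with RLE scaling, 1.31 with DESeq2, 2.17 with the gene share, 2.12 with the length offset and 0.22 with the keratinocyte score. The labels do not say whether same-numbered replicates of different time points belong together. Not every such pair's deviations correlated above 0.1 (mean r from -0.04 to 0.17 over the 6 pairs of time points). Differently numbered libraries were not compared, so these values cannot decide whether the replicates are paired.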
